A study of Mus musculus with 8 samples.

Results

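The CIS and SOCS proteins are feedback inhibitors of cytokine signalling, and their transcripts were followed here in mouse regulatory T (Treg) cells that had received a guide RNA against Foxp3, the transcription factor that defines this lineage. The 8 genes of the family, Cish and Socs1 to Socs7, were taken by gene symbol from the 55665 rows of the deposited gene tables. All 8 were among the 16642 genes with enough counts to be tested. The cells were natural Treg cells, CD4+GFP+ cells that were sorted by flow cytometry out of spleen and lymph node tissue from RosaCas9/+ Foxp3gfp mice and kept in culture, so every group carried the Cas9 allele and the reporter allele. The 4 groups of 2 RNA-seq libraries were cells with the Foxp3 guide (sgFoxp3) after 3 h of restimulation through the T cell receptor (TCR) with anti-CD3 and anti-CD28, cells with the Foxp3 guide after a mock treatment with DPBS (0 h), and cells with the control guide (sgNC) after the same 3 h of TCR stimulation or the same mock treatment. The age and sex of the mice, the number of animals and whether the libraries of a group came from separate cultures are not given in the sources used here. The p-values therefore set each difference only against the scatter among these libraries, estimated with information shared across genes. That scatter may be technical.

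Cytokine receptors of T cells signal through JAK kinases, which phosphorylate the receptor and the STAT transcription factors. STATs switch on CIS and several SOCS genes, and the proteins made from them act back on the same receptors. Every family member has an SH2 domain, which binds phosphotyrosine, and a SOCS box, which recruits Elongin B, Elongin C and Cullin 5 so that the bound partner is ubiquitinated. SOCS1 and SOCS3 also carry a short kinase inhibitory region that blocks JAKs directly, whereas CIS is best known for occupying STAT5 docking sites. In Treg cells, IL-2 acting through STAT5 is a main survival signal, and in mice SOCS1 is known to protect Treg cells from the effects of inflammatory cytokines.

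Libraries held 38729009 to 94807362 expected counts, and the Foxp3-guide libraries were the deeper ones, with at least 55865290 each, against at most 48626432 in control-guide libraries. Foxp3 itself stood at 71.8 to 88.5 CPM (counts-per-million, on a library size scaled by the TMM method) in the 4 Foxp3-guide libraries, against 673.4 to 775.9 CPM in the 4 control-guide libraries. The 4 CD4 T cell markers Cd3e, Cd3g, Cd4 and Trac summed to 1280 to 1775 TPM (transcripts-per-million, which corrects for gene length) in all 8 libraries. Markers of B, CD8 T, NK, myeloid, erythroid and stromal cells each summed to at most 9.58 TPM. The 5 Treg markers Foxp3, Il2ra, Ikzf2, Ctla4 and Tnfrsf18 summed to 1461 to 1502 TPM with the Foxp3 guide at 3 h, 913.1 to 926.7 TPM with the Foxp3 guide at 0 h, 3853 to 3923 TPM with the control guide at 3 h and 2574 to 2610 TPM with the control guide at 0 h. The share of counts on ribosomal protein genes was 6.70% to 7.71% with the Foxp3 guide and 5.55% to 5.95% with the control guide. The summed Treg markers and the ribosomal protein share thus moved with the guide, as did most CIS and SOCS genes. Taken singly, 4 of the 5 Treg markers were called lower with the Foxp3 guide at 3 h, and 5 at 0 h. The part of these markers and of the ribosomal protein share in the results below was not tested. In these bulk libraries, fewer cells of a type and less RNA per cell cannot be told apart.

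After 3 h of TCR stimulation, Cish, Socs1, Socs2, Socs3 and Socs5 were lower with the Foxp3 guide than with the control guide, Socs7 was higher, and Socs4 and Socs6 did not pass the test. A gene was called when its Benjamini-Hochberg adjusted p from edgeR's quasi-likelihood test, fitted over all 16642 genes, was below 0.05. By that rule 6 of the 8 genes were called, beside 61.5% of all genes tested (30.7% higher and 30.8% lower), so that a called difference is common here. Socs2 and Socs3 were apart by at least 2-fold, at 2.14-fold and 2.07-fold, a margin that 16.6% of all genes passed. The median log2 change of the 8 genes was -0.16, beside -0.0086 over all genes. On log2(TPM+1) the members split otherwise, with 7 lower and none higher: Socs4 and Socs6 were called lower and Socs7 was not called. The calls over all genes were then 2463 higher and 6537 lower.

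In unstimulated cells, all 8 family members were lower with the Foxp3 guide. Cish and Socs1 were lower by the widest margins, 5.01-fold and 3.97-fold, followed by Socs3 at 2.55-fold and Socs2 at 2.12-fold, while Socs4 to Socs7 differed by 1.15- to 1.51-fold. The median log2 change was -0.84, beside 0.023 over all genes tested. All 8 were called, beside 63.3% of all genes tested (34.2% higher and 29.1% lower). The 2-fold margin, passed by 4 of the 8 members, was passed by 15.5% of all genes. On log2(TPM+1) the calls over all genes were 2909 higher and 7526 lower, and all 8 members were again lower. The 2 guide comparisons use different libraries, whereas each shares libraries with both TCR comparisons.

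**Figure D1:**
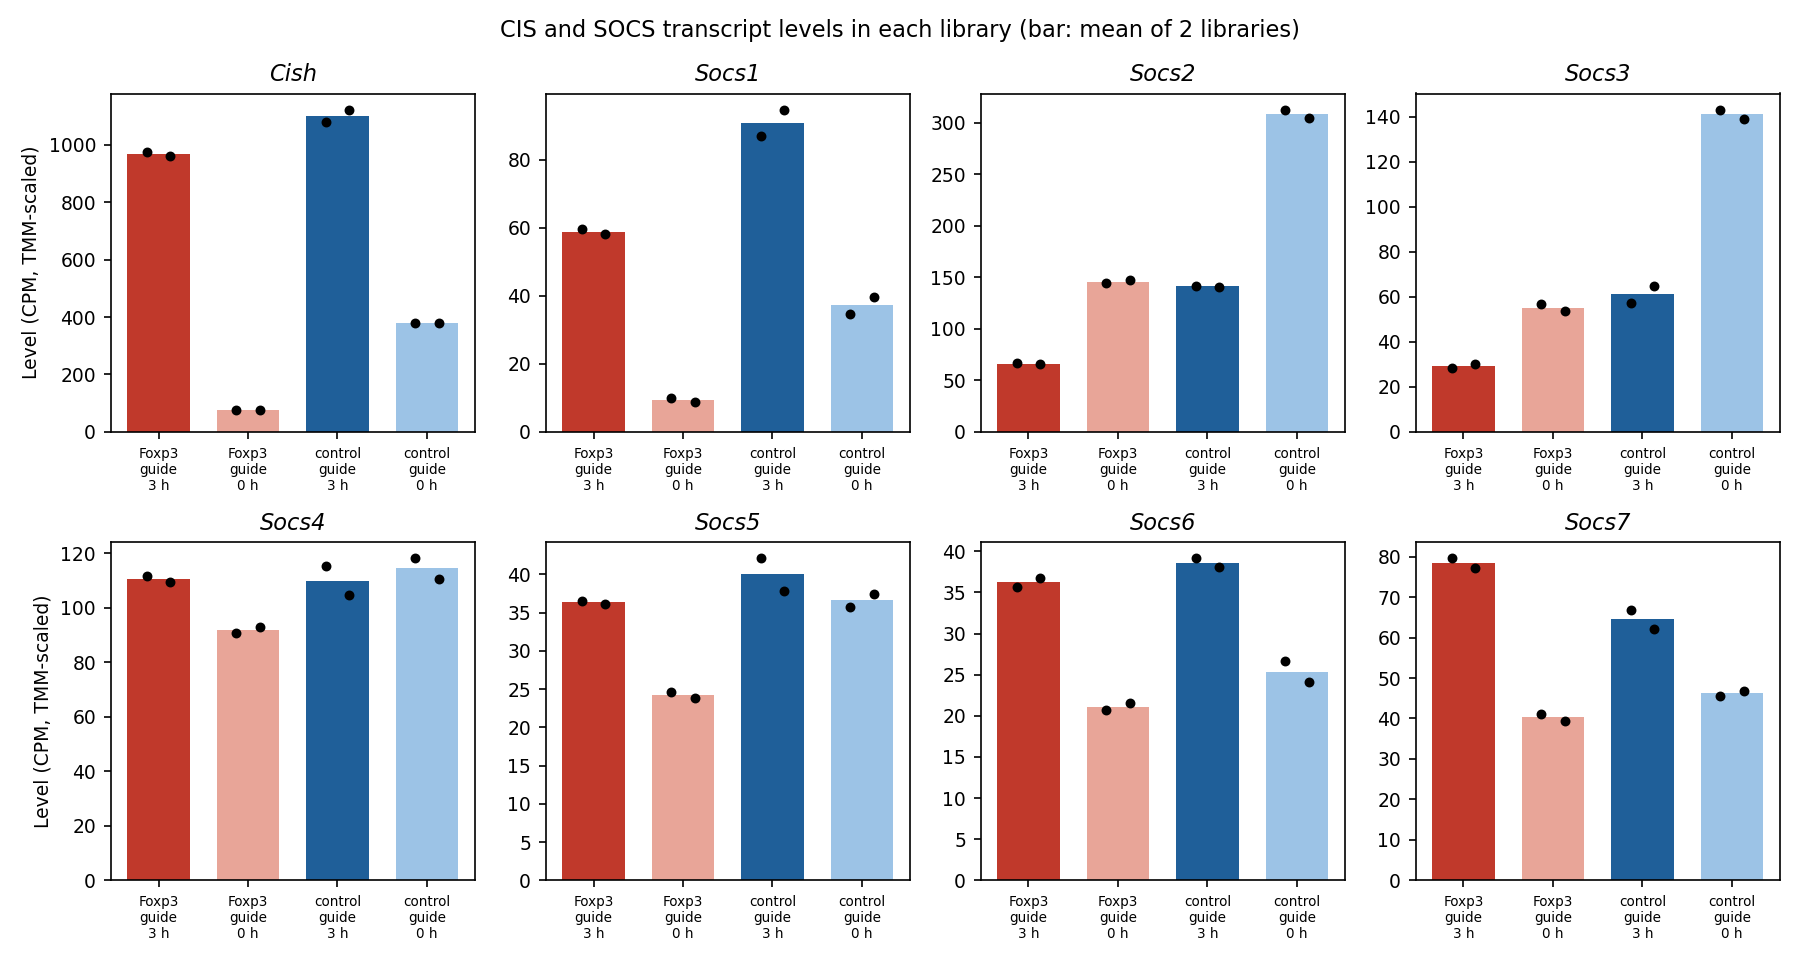
Level of each CIS and SOCS transcript, in TMM-scaled CPM on a linear axis, in the Foxp3-guide groups at 3 h and 0 h and the control-guide groups at 3 h and 0 h; points are libraries and bars are means of 2 libraries. Cish and Socs1 are lowest with the Foxp3 guide at 0 h and high in both 3 h groups, whereas Socs2 and Socs3 are highest with the control guide at 0 h and lowest with the Foxp3 guide at 3 h.

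Cish encodes CIS, the founding member of the family and a direct STAT5 target, which limits IL-2 signalling (ENSMUSG00000032578.7; GRCm38 chromosome 9, 107296026 to 107302784, plus strand, protein coding). Its promoter is the only one of those matched with more than 1 STAT motif, so the stretch that holds both is shown first, with the corresponding stretches of Socs3 and Socs1. All 3 are RefSeq sequence on GRCm38.p6, written 5′ to 3′ on the strand of the gene. Capitals mark the motif TTCNNNGAA, the STAT motif, which is its own reverse complement, or in Socs1 the interferon-response motif GAAANNGAAA.
Cish, chr9:107296654-107296683, plus strand: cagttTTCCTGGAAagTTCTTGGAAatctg
Socs3, chr11:117969481-117969550, minus strand: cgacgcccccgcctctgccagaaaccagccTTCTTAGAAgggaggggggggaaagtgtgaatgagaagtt
Socs1, chr16:10785580-10785649, minus strand: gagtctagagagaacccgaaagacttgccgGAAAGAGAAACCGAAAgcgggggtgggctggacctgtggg

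The Cish stretch runs from position -5 to 25 relative to the annotated start, within the 5′ UTR of a longer annotated transcript. The Socs3 stretch runs from -184 to -115 and the Socs1 stretch from -113 to -44. RefSeq promoters of 300 bases, 250 before the start and 50 after it, were matched for Cish, Socs1, Socs3 and Socs4. TTCNNNGAA occurred 2 times in the Cish promoter and 1 time in that of Socs3, against 8.30% of all 32851 promoters with at least 1 match and 0.457% with 2 or more. GAAANNGAAA, searched with its reverse complement TTTCNNTTTC, occurred 2 times in the Socs1 promoter as overlapping matches, against 3.44% of all promoters with at least 1 and 0.225% with 2 or more. TTCNNNNGAA, the spacing preferred by STAT6, and TGTTTAC, a forkhead motif searched with its reverse complement GTAAACA, were in none of the 4 promoters, against 6.95% and 3.65% of all. The Socs4 promoter held none of these motifs. A match is a description of these letters and not a measured binding site.

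Cish stood at 973.4 and 961.0 CPM with the Foxp3 guide at 3 h and at 74.7 and 76.3 CPM with the Foxp3 guide at 0 h, against 1078 and 1122 CPM with the control guide at 3 h and 378.4 and 378.2 CPM with the control guide at 0 h. The 0 h Foxp3-guide libraries were far below every other library, and the 2 guides came close to each other at 3 h without overlapping. After stimulation the log2 change with the Foxp3 guide was -0.19 (SE 0.04, adjusted p = 0.000284), and in unstimulated cells it was -2.32 (SE 0.04, adjusted p = 5.44e-23). The 3 h change was larger in size than that of 30.4% of all genes tested, and the 0 h change larger than that of 95.9%. When the test asked for a change beyond 1.2-fold, the 3 h difference was no longer called. Its size ranged from -0.36 to -0.13 over the alternatives. Antisense gene models overlap Cish, with at most 98 counts in any library for Gm17040 and at most 5 for Gm17041, against 5247 to 79027 for Cish in these stranded libraries.

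Socs1 encodes the JAK inhibitor of the family with the strongest known role in restraining interferon-gamma and IL-2 family signals (ENSMUSG00000038037.5; chromosome 16, 10782240 to 10785536, minus strand, protein coding). Its levels were 59.7 and 58.1 CPM with the Foxp3 guide at 3 h and 10.01 and 8.76 CPM with the Foxp3 guide at 0 h, against 87.0 and 94.8 CPM with the control guide at 3 h and 34.7 and 39.8 CPM with the control guide at 0 h. The order of the groups was that of Cish, and no groups overlapped. The guide difference was -0.63 on the log2 scale at 3 h (SE 0.06, adjusted p = 1.73e-07) and -1.99 at 0 h (SE 0.08, adjusted p = 7.1e-13). Socs1 thus remained 1.54-fold lower with the Foxp3 guide after stimulation, and Cish 1.14-fold lower. Beyond 1.2-fold the Socs1 difference was still called and the Cish difference was not.

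Socs2 encodes a regulator best known for restraining the growth hormone receptor, and it is itself induced through STAT5 by several cytokines (ENSMUSG00000020027.18; chromosome 10, 95385362 to 95417180, minus strand, protein coding). It stood at 66.7 and 66.0 CPM with the Foxp3 guide at 3 h and at 144.5 and 147.5 CPM with the Foxp3 guide at 0 h, against 142.0 and 141.2 CPM with the control guide at 3 h and 312.9 and 305.0 CPM with the control guide at 0 h. Foxp3-guide cells were lower at both times, and stimulated cells were lower with both guides. The guide difference was -1.09 at 3 h (SE 0.04, adjusted p = 8.17e-18) and -1.08 at 0 h (SE 0.04, adjusted p = 2.71e-18). Expected counts of Socs2 were fractional in all 8 libraries, as RSEM gives where reads can belong to more than 1 locus; of the other members only Socs6 had such a value, in 1 library.

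Socs3 encodes the other JAK inhibitor of the family, which binds the gp130 receptor chain and damps IL-6 signals through STAT3 (ENSMUSG00000053113.3; chromosome 11, 117966079 to 117970047, minus strand, protein coding). Its values were 28.6 and 30.2 CPM with the Foxp3 guide at 3 h and 56.9 and 53.6 CPM with the Foxp3 guide at 0 h, against 57.5 and 64.8 CPM with the control guide at 3 h and 143.2 and 139.0 CPM with the control guide at 0 h. As with Socs2, the control-guide cells at 0 h were highest and the stimulated Foxp3-guide cells lowest. The guide difference was -1.05 at 3 h (SE 0.05, adjusted p = 1.35e-13) and -1.35 at 0 h (SE 0.05, adjusted p = 2.11e-16).

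Socs4 and Socs5 encode members with long N-terminal regions that were linked to EGF receptor turnover in other cells. Socs4 (ENSMUSG00000048379.9; chromosome 14, 47276931 to 47296102, plus strand) stood at 111.5 and 109.6 CPM with the Foxp3 guide at 3 h and at 90.7 and 92.9 CPM with the Foxp3 guide at 0 h, against 115.1 and 104.6 CPM with the control guide at 3 h and 118.2 and 110.7 CPM with the control guide at 0 h. Only the unstimulated Foxp3-guide libraries stood apart. At 3 h the guides overlapped, with a log2 difference of 0.0080 (SE 0.04, adjusted p = 0.892), which turned to -0.19 on log2(TPM+1) (adjusted p = 0.0438). The guide difference at 0 h was -0.32 (SE 0.04, adjusted p = 1.11e-06).

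Socs5 (ENSMUSG00000037104.9; chromosome 17, 87107679 to 87137839, plus strand) had 36.5 and 36.2 CPM with the Foxp3 guide at 3 h and 24.6 and 23.8 CPM with the Foxp3 guide at 0 h, against 42.1 and 37.9 CPM with the control guide at 3 h and 35.8 and 37.5 CPM with the control guide at 0 h. The unstimulated Foxp3-guide libraries were again the low ones. The 3 h difference of -0.14 (SE 0.05, adjusted p = 0.025) was not called by DESeq2 (adjusted p = 0.106), nor without control-guide 3 h replicate 1 (-0.058, adjusted p = 0.43), Foxp3-guide 3 h replicate 1 (-0.14, adjusted p = 0.0667) or Foxp3-guide 3 h replicate 2 (-0.090, adjusted p = 0.292). The 0 h difference was -0.60 (SE 0.05, adjusted p = 7.04e-10).

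Socs6 and Socs7 encode the members tied to insulin receptor substrate and receptor tyrosine kinase signalling. Socs6 (ENSMUSG00000056153.15; chromosome 18, 88665224 to 88927481, minus strand) stood at 35.6 and 36.8 CPM with the Foxp3 guide at 3 h and at 20.6 and 21.5 CPM with the Foxp3 guide at 0 h, against 39.2 and 38.1 CPM with the control guide at 3 h and 26.6 and 24.1 CPM with the control guide at 0 h. Libraries parted by time more than by guide. The guide difference at 3 h was -0.091 (SE 0.05) and was not called (adjusted p = 0.132), but it was called at -0.23 on log2(TPM+1) (adjusted p = 0.00954). At 0 h it was -0.26 (SE 0.06, adjusted p = 0.000211).

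Socs7 (ENSMUSG00000038485.6; chromosome 11, 97362551 to 97398542, plus strand), whose product binds the adaptor NCK, had 79.6 and 77.1 CPM with the Foxp3 guide at 3 h and 41.2 and 39.4 CPM with the Foxp3 guide at 0 h, against 66.8 and 62.2 CPM with the control guide at 3 h and 45.5 and 46.9 CPM with the control guide at 0 h. The stimulated Foxp3-guide libraries were the highest and the unstimulated Foxp3-guide libraries the lowest. The guide difference was thus 0.28 at 3 h (SE 0.05, adjusted p = 9.29e-06) and -0.20 at 0 h (SE 0.05, adjusted p = 0.000917). On log2(TPM+1) the 3 h difference was 0.054 and was not called (adjusted p = 0.592).

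**Figure D2:**
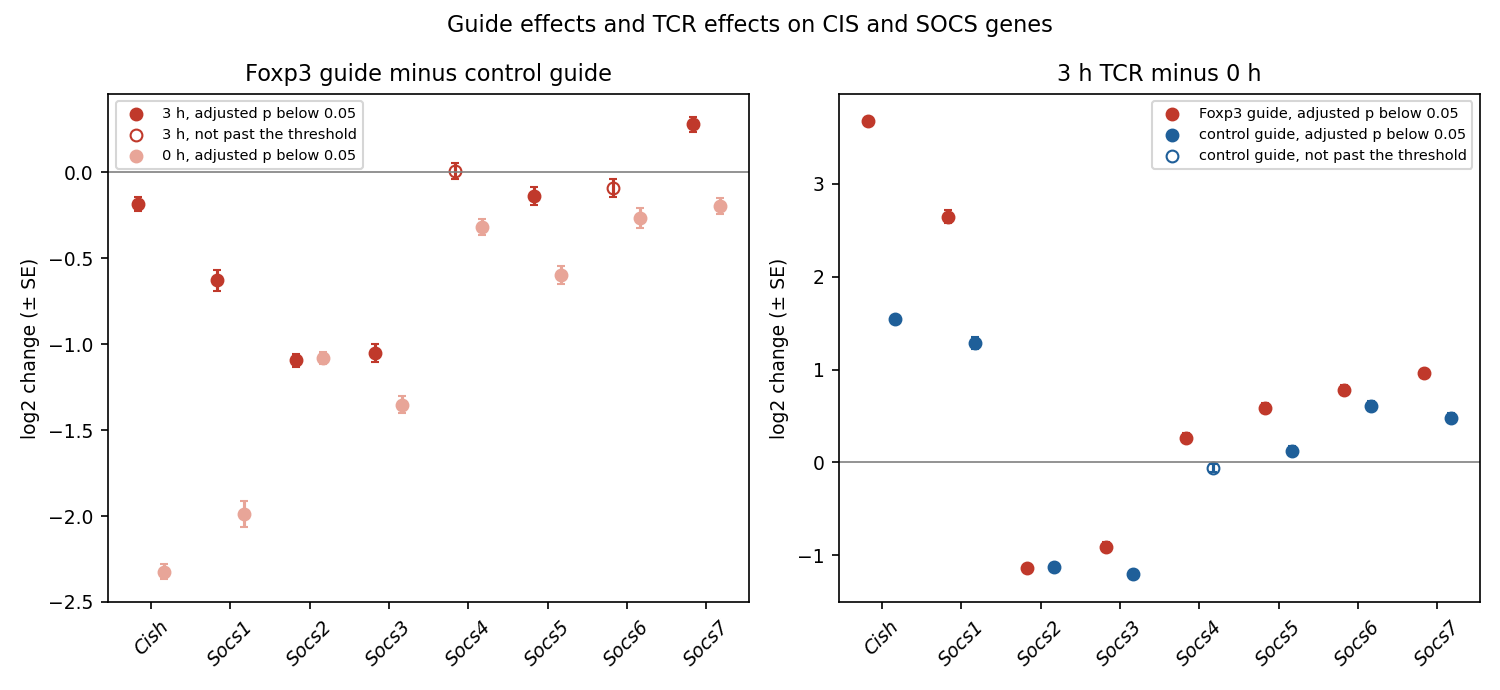
Log2 changes with their SE for each member: left, Foxp3 guide minus control guide at 3 h and at 0 h; right, 3 h of TCR stimulation minus 0 h for either guide. Filled points passed an adjusted p of 0.05 and open points did not; the guide difference of Cish is -0.19 at 3 h and -2.32 at 0 h, while that of Socs2 is -1.09 at 3 h and -1.08 at 0 h.

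TCR stimulation split the family. Cish, Socs1, Socs6 and Socs7 rose and Socs2 and Socs3 fell with either guide, while Socs4 and Socs5 moved least. With the Foxp3 guide all 8 members were called, 6 higher (Socs4 among them, which was not on log2(TPM+1)) and 2 lower, beside 85.4% of all genes tested (40.8% higher and 44.5% lower), and 3 passed 2-fold, beside 51% of all genes. With the control guide 7 were called, 5 higher and 2 lower, against 3 higher and 4 lower on log2(TPM+1), where Socs4 and Socs5 were called lower and Socs7 was not called. Of all genes 81.8% were called (40.9% higher and 40.9% lower), and 4 members passed 2-fold, beside 46%. The median log2 changes of the 8 members were 0.68 and 0.30 for these comparisons, beside -0.068 and -0.010 over all genes. On log2(TPM+1) the calls over all genes with the control guide were 4956 higher and 8343 lower.

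Cish rose 12.8-fold with the Foxp3 guide (log2 change 3.68, SE 0.04, adjusted p = 4.22e-28) and 2.91-fold with the control guide (1.54, SE 0.04, adjusted p = 3.95e-21). Socs1 rose 6.27-fold with the Foxp3 guide (2.65, SE 0.07, adjusted p = 1.37e-15) and 2.44-fold with the control guide (1.29, SE 0.06, adjusted p = 8.52e-12). The larger rise with the Foxp3 guide in both genes began at a lower 0 h level and ended at a lower 3 h level. Socs6 rose by 0.78 in Foxp3-guide cells and 0.61 in control-guide cells on the log2 scale (SE 0.05 each). Socs7 rose by 0.96 in Foxp3-guide cells and 0.48 in control-guide cells (SE 0.05 each), the control-guide rise being 0.13 and not called on log2(TPM+1) (adjusted p = 0.16).

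Socs2 fell by 1.14 with the Foxp3 guide (SE 0.04, adjusted p = 2.52e-19) and by 1.13 with the control guide (SE 0.04, adjusted p = 2.56e-19), 2.20-fold and 2.18-fold. Socs3 fell by 0.91 with the Foxp3 guide (SE 0.05, adjusted p = 2.4e-13) and by 1.21 with the control guide (SE 0.05, adjusted p = 4.93e-16). Socs2 and Socs3 thus went down within the 3 h in which Cish and Socs1 went up. Socs5 rose by 0.59 with the Foxp3 guide (SE 0.05, adjusted p = 2.04e-10). Its change of 0.13 with the control guide (SE 0.05, adjusted p = 0.0325) was -0.26 on log2(TPM+1) (adjusted p = 0.0084), so no direction can be given. Socs4 changed by 0.27 with the Foxp3 guide (SE 0.04, adjusted p = 5.26e-06) and by -0.058 with the control guide (SE 0.04, adjusted p = 0.23); on log2(TPM+1) these were -0.035 and -0.41, the second of them called (adjusted p = 0.000529).

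The difference between the TCR effects, Foxp3 guide minus control guide, was tested in the same model. It equals the guide effect at 3 h minus the guide effect at 0 h. It was positive and called for 6 members, Cish, Socs1, Socs3, Socs4, Socs5 and Socs7, beside 44.8% of all genes tested, of which 17.8% were positive and 27% negative. On log2(TPM+1) the calls over all genes were 3044 positive and 2866 negative. Cish had the largest value of the family, 2.14 on the log2 scale (SE 0.06, adjusted p = 1.15e-18), or 4.40-fold, which was larger in size than that of 96.3% of genes. Socs1 followed at 1.36 (SE 0.10, adjusted p = 8.86e-09). These 2 passed 2-fold, beside 9.36% of all genes.

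Differences for the other called members were smaller: 0.48 for Socs7 (SE 0.07, adjusted p = 1.9e-06), 0.46 for Socs5 (SE 0.08, adjusted p = 2.08e-05), 0.33 for Socs4 (SE 0.06, adjusted p = 0.000149) and 0.30 for Socs3 (SE 0.07, adjusted p = 0.00176). Socs6, at 0.17 (SE 0.08), was not called (adjusted p = 0.0675), but it was with median-ratio (RLE) scaling at 0.24 (adjusted p = 0.0143), likewise with upper-quartile scaling, on log2(TPM+1) at 0.26 (adjusted p = 0.0372), on log2(TPM+0.1) and without control-guide 0 h replicate 2 at 0.24 (adjusted p = 0.0217). For Socs2 the difference was -0.013 (SE 0.05, adjusted p = 0.87), and from -0.040 to 0.11 over the alternatives, none of which called it. Socs2 was thus the member whose guide difference was close to 2-fold at both times, with no change detected between them.

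Levels can be compared between genes only per length, so the next values are mean TPM of 2 libraries. With the Foxp3 guide at 3 h the order was Cish at 351.6 TPM, Socs2 at 45.7, Socs1 at 26.4, Socs4 at 19.7, Socs6 at 16.4, Socs3 at 16.04, Socs7 at 14.7 and Socs5 at 11.2, and the libraries of Socs6 and Socs3 overlapped. With the Foxp3 guide at 0 h it was Socs2 at 124.6 TPM, Socs3 at 37.1, Cish at 33.4, Socs4 at 20.2, Socs6 at 9.51, Socs5 at 9.33, Socs7 at 9.02 and Socs1 at 5.22, and Socs6 and Socs5 overlapped. Socs1 thus had the lowest mean of the 8 in unstimulated Foxp3-guide cells and stood behind only Cish and Socs2 after stimulation.

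With the control guide at 3 h the order was Cish at 452.8 TPM, Socs2 at 109.6, Socs1 at 47.2, Socs3 at 38.7, Socs4 at 22.6, Socs6 at 19.3, Socs5 at 14.6 and Socs7 at 14.1, the last pair overlapping. At 0 h it was Socs2 at 319.1 TPM, Cish at 202.0, Socs3 at 114.1, Socs4 at 30.3, Socs1 at 24.7, Socs5 at 17.7, Socs6 at 13.7 and Socs7 at 12.8, with no neighbours overlapping. Socs2 was thus the most abundant member in unstimulated cells with either guide, and Cish in stimulated cells.

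Summed over the 8 genes, the family held 501.8 ± 14.3 TPM with the Foxp3 guide at 3 h, 248.3 ± 0.396 TPM with the Foxp3 guide at 0 h, 718.9 ± 10.6 TPM with the control guide at 3 h and 734.4 ± 5.85 TPM with the control guide at 0 h (SD, n = 2 each). On this scale the control-guide sums lay close together at the 2 times although their make-up differed. In TMM-scaled CPM they did not: the sums were 1383 ± 11.8 with the Foxp3 guide at 3 h and 463.5 ± 0.324 with the Foxp3 guide at 0 h, against 1646 ± 26.5 with the control guide at 3 h and 1088 ± 9.88 with the control guide at 0 h (SD, n = 2 each). Cish made up 70.1% of the TPM sum with the Foxp3 guide at 3 h and 13.4% with the Foxp3 guide at 0 h, against 63.0% with the control guide at 3 h and 27.5% with the control guide at 0 h. Socs2 made up 9.11% and 50.2% in the Foxp3-guide groups at 3 h and 0 h, against 15.2% and 43.5% in the control-guide groups at 3 h and 0 h.

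**Figure D3:**
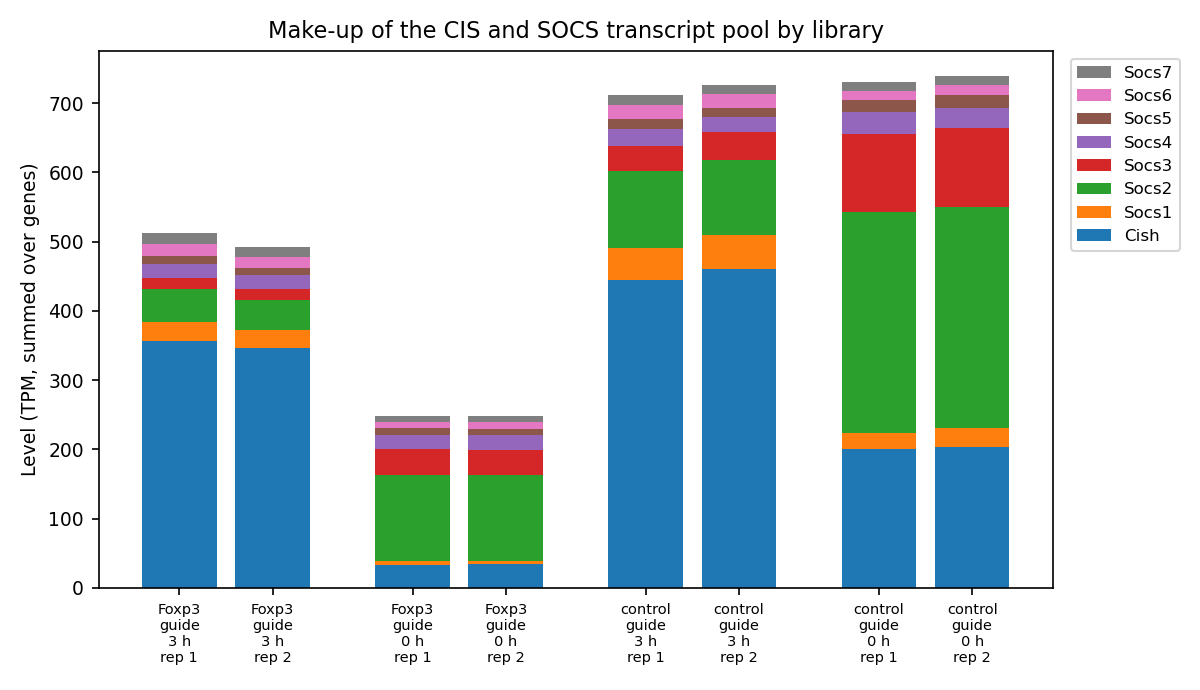
Summed TPM of the 8 family members in each of the 8 libraries, stacked by gene on a linear axis from 0. The unstimulated Foxp3-guide libraries hold the smallest sum, 248.3 TPM on average, and Cish takes 70.1% of the sum with the Foxp3 guide at 3 h but 13.4% at 0 h.

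Profiles over the 8 libraries were compared by the root mean square difference in log2 CPM, each gene centred on its own mean. Socs2 and Socs3 differed by 0.12 and Cish and Socs1 by 0.38. Socs4 to Socs7 lay together, from 0.15 between Socs6 and Socs7 and 0.17 between Socs4 and Socs5 to 0.33 between Socs4 and Socs7. The widest gap, 1.95, lay between Cish and Socs2. Candidates were 8644 well-expressed genes, without numbered gene models, pseudogenes and antigen receptor segments. Among them the profile most like that of Cish was Il2ra, which encodes the IL-2 receptor alpha chain, at 0.25. Cyp11a1, a steroid-synthesis enzyme, followed at 0.30 and Tmem120b at 0.34, beside a median of 1.54 over all those genes. Closest to Socs1 were Cyp11a1 at 0.11, Nabp1 at 0.18 and Fam84b at 0.22, beside a median of 1.25. Igflr1 at 0.096, the kinase gene Tnk2 at 0.099 and the lipase gene Lipe at 0.11 were closest to Socs2, beside a median of 0.93. For Socs3 they were Sh3bp4 at 0.080, Pnkd at 0.10 and Socs2 itself at 0.12, beside a median of 0.96. The measure does not scale genes to their own spread, so size of change counts beside shape, and genes that change little lie close. With 4 group means behind the 8 libraries these values are a description only.

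**Figure D4:**
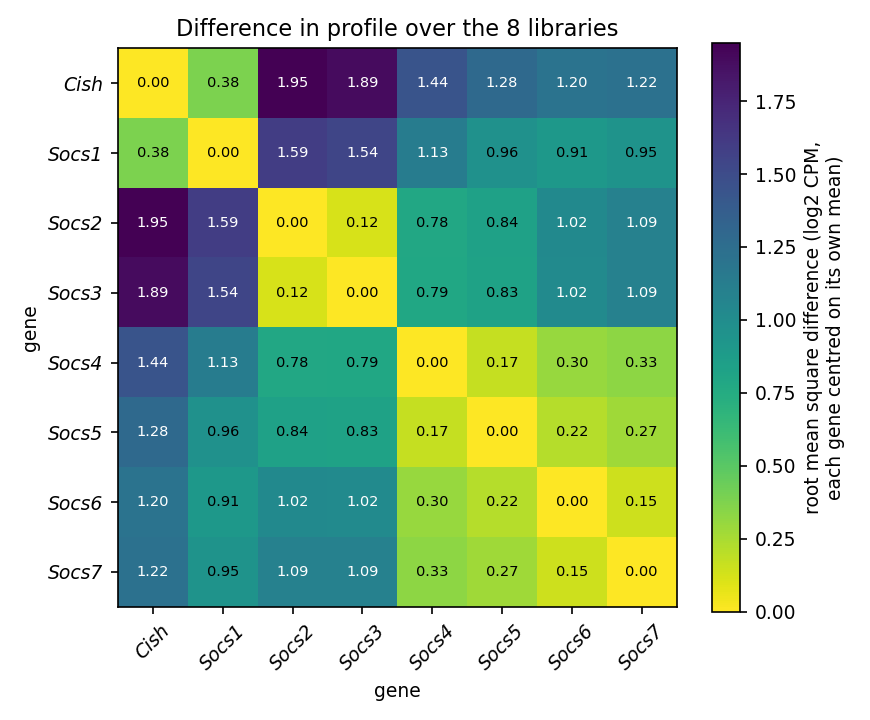
Root mean square difference between the library profiles of each pair of members, in log2 CPM with each gene centred on its own mean. Socs2 and Socs3 differ by 0.12 and Cish and Socs1 by 0.38, while Cish and Socs2 differ by 1.95.

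The annotated transcripts also differed in AUUUA, an element found in many short-lived mRNAs. It was searched as ATTTA in the 3′ UTR of 1 GENCODE M21 transcript per gene. Its density was 3.28 per kb in Socs4, 2.75 in Cish, 2.71 in Socs3, 2.49 in Socs6, 1.72 in Socs2, 1.54 in Socs5, 0.964 in Socs7 and 0 in Socs1, beside a median of 1.47 over 17009 genes with a 3′ UTR of at least 200 bases. Cish, which rose with stimulation, and Socs3, which fell, had nearly the same value, and Socs1, which rose, had no such element in 1996 bases. The decay of these mRNAs was not measured, and a link between this density and the TCR effects was not tested. Coding lengths were 594 to 771 bases in Cish and Socs1 to Socs3, and 1308 to 1737 bases in Socs4 to Socs7.

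The genes around the family in the JAK-STAT pathway were counted by list. These counts are read beside the share of all genes called between guides, 61.5% at 3 h (30.7% higher and 30.8% lower) and 63.3% at 0 h (34.2% higher and 29.1% lower). At 3 h, of the 6 STAT genes counted, 3 were higher with the Foxp3 guide and 3 lower, with Stat3, which carries IL-6 signals, at -0.86 (SE 0.04) and Stat2 at -0.54 (SE 0.05). Among the 3 higher, Stat5b at 0.15 turned to -0.034 on log2(TPM+1). At 0 h 4 of the 6 were lower and none higher. Stat5a, an inducer of Cish, stood at 1131 and 1107 CPM with the Foxp3 guide at 3 h and at 70.4 and 69.7 CPM with the Foxp3 guide at 0 h, against 850.5 and 866.8 CPM with the control guide at 3 h and 186.6 and 199.5 CPM with the control guide at 0 h. It was lowest in the same group as Cish, with a guide difference of -1.46 at 0 h (SE 0.04). The difference between its TCR effects was 1.85 (SE 0.06). At 3 h Stat5a stood higher with the Foxp3 guide, whereas Cish stood lower. A link between Stat5a and Cish was not tested.

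Of 17 cytokine receptor genes, 15 were lower and 1 higher with the Foxp3 guide at 3 h, and 10 were lower and 3 higher at 0 h (13 lower and 1 higher on log2(TPM+1)). At 3 h the interferon-gamma receptor genes Ifngr1 and Ifngr2 were at -1.79 and -1.17. Il10rb stood at 23.3 and 23.4 CPM with the Foxp3 guide at 3 h, against 53.1 and 56.8 CPM with the control guide at 3 h. At 0 h Il2ra changed by -2.29 (SE 0.04), Il6st, which encodes gp130, by -1.68, and Il2rb, whose product CIS binds, by -1.08. Il2rb stood at 869.2 and 866.2 CPM with the Foxp3 guide at 3 h and at 542.7 and 539.5 CPM with the Foxp3 guide at 0 h, against 1057 and 1061 CPM with the control guide at 3 h and 1139 and 1155 CPM with the control guide at 0 h. Foxp3-guide libraries were thus lower at both times.

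Of 12 cytokine genes tested, 9 were higher and 2 lower with the Foxp3 guide at 3 h. Il2 stood at 3617 and 3769 CPM with the Foxp3 guide at 3 h, against 392.3 and 398.5 CPM with the control guide at 3 h, and at no more than 0.553 CPM in any 0 h library. The Il2 transcript was higher by 3.22 on the log2 scale (SE 0.07) with the Foxp3 guide at 3 h. Cish was 1.14-fold lower in that comparison, a difference not called beyond 1.2-fold. IL-2 protein was not measured, and a link between Il2 and Cish was not tested. Il4 differed by 4.91 (SE 0.07) in the same comparison. Of the 4 JAK genes, Jak2 was higher with the Foxp3 guide at both times, 2.47-fold at 3 h and 1.80-fold at 0 h, while 3 were lower at 3 h and 2 at 0 h.

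A list of 8 genes for Cullin ligase parts and Cullin modification held Elob, Eloc, Cul5, Cul2, Rnf7, Rbx1, Ube2f and Nedd8. Of these, 7 were higher and none lower with the Foxp3 guide at 3 h, and 6 were higher and 1 lower at 0 h. On log2(TPM+1) these counts were 2 higher and 1 lower at 3 h and 3 higher and 2 lower at 0 h, so fewer were called higher on that scale. Directions turned there for Cul2 and Rnf7 at 3 h and for Rnf7 and Ube2f at 0 h. Nedd8, the Cullin modifier, was at 0.58 (SE 0.05) and Eloc, for Elongin C, at 0.47 at 0 h. Cul5, for Cullin 5, went the other way at 0 h. It stood at 33.0 and 33.7 CPM with the Foxp3 guide, against 38.8 and 38.0 CPM with the control guide. Among 11 other JAK-STAT inhibitors, phosphatases and PIAS proteins included, 3 were higher and 5 lower at each time, a called share near that of all genes. With log2(TPM+1) values 1 was higher and 8 lower at 3 h, and 1 higher and 9 lower at 0 h. At 0 h Usp18, which dampens interferon receptor signals, was at -1.98 (SE 0.12) and the phosphatase gene Ptpn6 at 0.66. Other SOCS-box genes were 2 higher and 2 lower of 5 at 3 h, and 2 higher and none lower at 0 h, where log2(TPM+1) gave none higher and 3 lower and upper-quartile scaling 2 higher and 3 lower. Other binding partners of CIS and SOCS proteins were 4 higher and 5 lower of 12 at each time, against 1 higher and 7 lower at 3 h and 1 higher and 8 lower at 0 h on log2(TPM+1).

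Other genes known to be induced by IL-2 and STAT5 were lower in 6 and higher in 3 of 12 cases with the Foxp3 guide at 3 h, with a median of -0.079 (9 lower and 3 higher on log2(TPM+1)). At 0 h 10 were lower and 2 higher, with a median of -0.48 and changes from -2.43 to 1.58. Among the lower genes, Myc stood at -2.39 (SE 0.05) and Ccnd2 at -1.66. Their differences between the TCR effects were 2.25 and 1.44. The difference between the TCR effects was positive for 8 and negative for 3 of the 12, with values from -0.52 to 2.25. Of all genes 17.8% were called positive and 27% negative for that difference. Interferon-induced genes were lower in 9 and higher in 2 of 12 cases at 3 h and lower in 8 and higher in 2 at 0 h, with medians of -0.42 and -0.59, and on log2(TPM+1) none was higher at 3 h. Gbp5 was at -1.65 at 3 h and -2.53 at 0 h, and Irf1 at -1.80 at 3 h (SE 0.04 each). The guide difference of Socs1 was -0.63 at 3 h and -1.99 at 0 h.

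**Figure D5:**
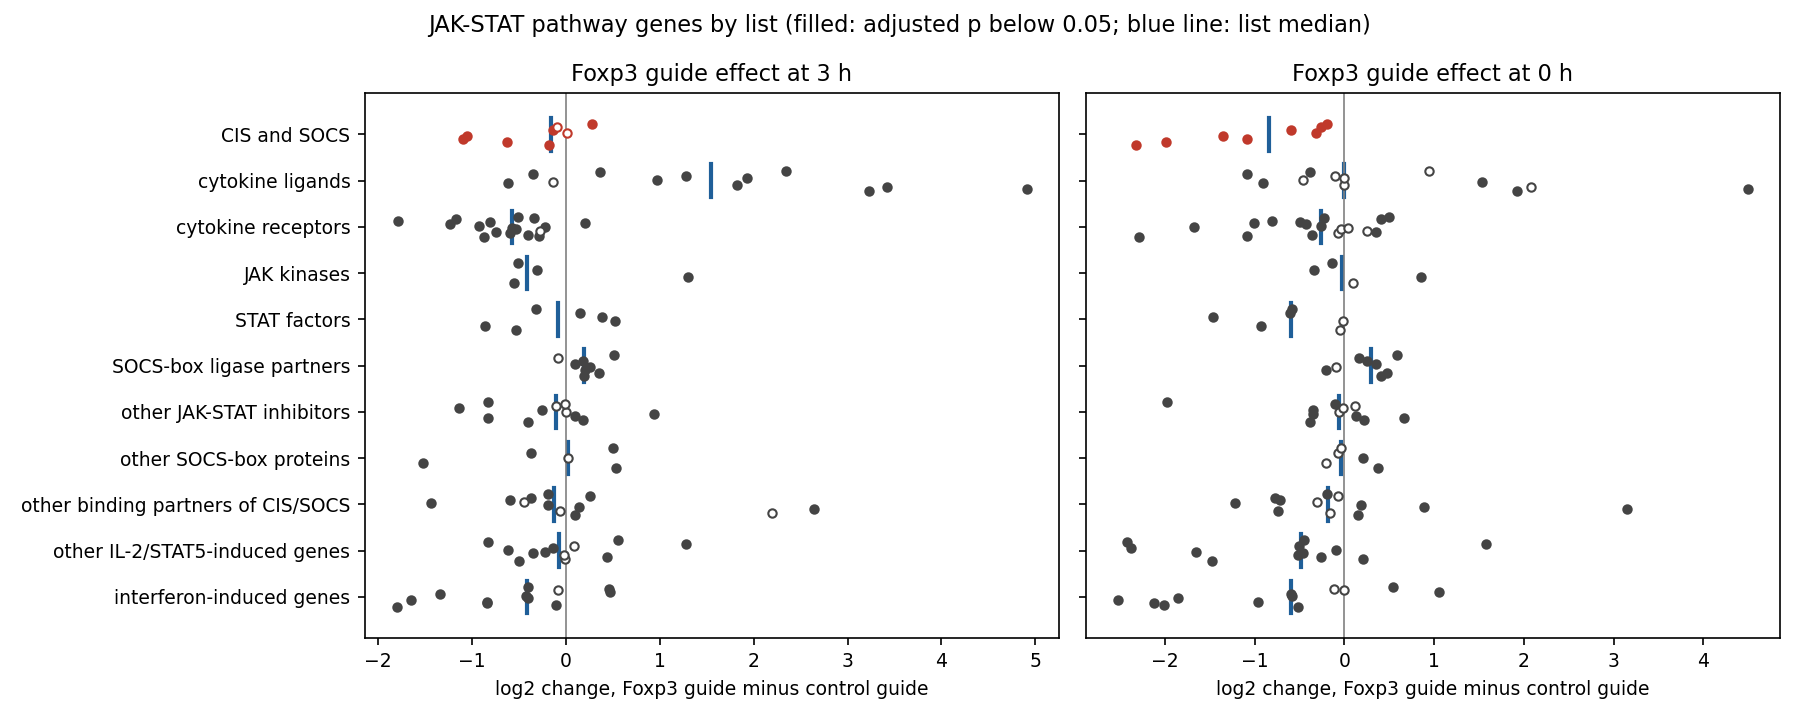
Log2 change with the Foxp3 guide, at 3 h on the left and at 0 h on the right, for the CIS and SOCS genes and 10 lists of JAK-STAT pathway genes; each point is a gene, filled where the adjusted p was below 0.05, and the line is the list's median. The CIS and SOCS median is -0.16 at 3 h and -0.84 at 0 h, and the cytokine genes reach 4.91 at 3 h.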

How the data were processed

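Stranded RNA-seq of 8 libraries in 4 groups of 2 was used. Per the submitters' processing notes, Trim Galore 0.6.3, STAR 2.7.9a, RSEM 1.3.1 and the mouse build mm10 (GRCm38) were named; the annotation release is not given in the sources used here. The authors deposited an expected count per gene and library, and these were rounded before edgeR or DESeq2 read them. The deposited TPM values, also the authors', gave the comparisons between genes and a second scale. Each column name is the title of its library.

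Genes were filtered with filterByExpr and scaled by TMM. A robust quasi-likelihood model with 1 mean per group was fitted to all 8 libraries (edgeR 4.0.16, limma 3.58.1, R 4.3.3), with 4 residual and a median of 19.1 prior degrees of freedom and a common BCV (biological coefficient of variation) of 3.41%. P-values were adjusted over 16642 genes by the Benjamini-Hochberg method. The pipeline was tested on simulated data. At these depths every member had 602 counts or more in every library. Libraries of a group differed by more than counting noise (chi-square per gene 4.54 to 7.47) and all were kept. Gene models came from GENCODE M21 (the identifier of Socs7 matched without its version).

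Named genes were Foxp3, the 8 members, and at most 3 called genes from among those with the largest changes per pathway list and comparison. The 3 profiles most like each of Cish, Socs1, Socs2 and Socs3 were also named. They were sought among genes averaging at least 3 in log2 CPM, without numbered gene models, pseudogenes and antigen receptor segments. Il2rb and Il10rb at 3 h and Cul5 at 0 h were added for their values. One listed gene is not reported here. The members and lists were chosen with earlier results of these data known. Alternatives were DESeq2 1.42.0, RLE or upper-quartile factors, limma-voom, limma on log2(TPM+1) and log2(TPM+0.1), other filters, only the libraries compared, a replicate block, stricter thresholds (adjusted p of 0.01, or glmTreat against 1.2-fold) and each library left out; counting the lists under RLE, upper-quartile and log2(TPM+1) scaling was added after the data were seen.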

Additional observations from a re-analysis of the deposited data

Results flagged for a closer look

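For 6 members the effect of 3 h of TCR stimulation differed between the guides by the test of the difference itself in the edgeR model (8 libraries, adjusted over all genes). Of all genes tested 44.8% were called by that test, 17.8% positive and 27% negative. The difference, Foxp3 guide minus control guide, was 2.14 on the log2 scale for Cish, 1.36 for Socs1, 0.48 for Socs7, 0.46 for Socs5, 0.33 for Socs4 and 0.30 for Socs3. Over the alternatives Cish ranged from 2.10 to 2.23 and Socs1 from 1.23 to 1.45, and both were called in each of them. Socs3 and Socs4 were not called when the test asked for a difference beyond 1.2-fold. Summed Treg markers, the ribosomal protein share and library totals moved with the guide, and their part in these differences was not tested. Groups of 2 libraries allow no test for an outlying library.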

How the results depend on the processing

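Of 832 alternative values for the members, 766 kept direction and side of the threshold, 30 lost the call, 14 gained it and 22 turned; 24 of 40 gene and comparison pairs held in every alternative run. All 8 members stayed lower with the Foxp3 guide at 0 h under each scaling. A glmTreat test against 1.2-fold called 3 members at 3 h and 5 at 0 h between guides and 4 for the difference between the TCR effects (all genes: 6039, 6418 and 3963), and log2(TPM+1) without a filter called 4843 genes for that difference.

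Values that turned were at most 0.27 in size as reported. Socs4 between guides at 3 h (0.0080) was -0.012 with upper-quartile scaling, -0.0067 with at least 1 CPM in all libraries, -0.19 on log2(TPM+1) with or without the filter, -0.20 on log2(TPM+0.1), -0.061 without control-guide 3 h replicate 2 and -0.0015 without Foxp3-guide 3 h replicate 1, within -0.061 to 0.081 over the left-out libraries. The TCR effect on Socs4 with the Foxp3 guide was -0.035 on log2(TPM+1) with or without the filter and -0.037 on log2(TPM+0.1). With the control guide it was -0.13 to 0.016 over the left-out libraries, the highest without control-guide 3 h replicate 2. The TCR effect on Socs5 with the control guide was -0.11 with upper-quartile scaling, -0.26 on log2(TPM+1) with or without the filter and -0.27 on log2(TPM+0.1). The difference between the TCR effects of Socs2 was 0.050 with RLE, upper-quartile scaling and DESeq2, 0.11 on log2(TPM+1) with or without the filter, 0.097 on log2(TPM+0.1) and -0.037 to 0.059 over the left-out libraries, the highest without Foxp3-guide 3 h replicate 2. The median of all genes differed between scalings. On log2(TPM+1) it was -0.12 and -0.15 for the guide effects at 3 h and 0 h. For the TCR effects with the Foxp3 and control guide it was -0.18 and -0.20, and for their difference 0.011. Without the filter it was -0.014 for the guide effect at 3 h and -0.014 and -0.0098 for those TCR effects. No cause of the turned values was tested.

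With 1 library left out in turn, the members called were 5 to 6 at 3 h and 8 to 8 at 0 h between guides, 8 to 8 and 6 to 7 for the TCR effects with the Foxp3 and control guide, and 6 to 7 for their difference. Over all genes the calls were 8882 to 10291, 9418 to 10824, 13532 to 14544, 13051 to 13677 and 6541 to 7323 in that order. The lone library left in a group is assumed there to vary like the others.

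The labels do not say that replicate numbers pair libraries. Same-numbered libraries deviated together with correlations of -0.23 to 0.29 between groups over 9241 genes, so the pairing was not used. With replicate number as a block, the members called were 6, 8, 8, 7 and 6 and the genes called 10034, 10319, 14111, 13527 and 7240, in the same order. Levels in TPM, given in the report, are per length and differ from CPM. The depth did not limit the members, but 2 libraries a group leave few degrees of freedom.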
